A study of Orbilia oligospora ATCC 24927 with 24 samples.

Results

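AOL_s00215g501 and AOL_s00210g370 are 2 genes of the nematode-trapping fungus Arthrobotrys oligospora whose annotation names a tyrosinase. They are 2 of the 11479 annotated genes in the deposited expression tables and 2 of 17 genes with a tyrosinase annotation. The pair was chosen by measured TPM in an earlier reading of the same libraries, in which both had been seen to differ between groups. Their values are therefore given as a description, with no test, and tests are reported only for other genes. Both protein annotations carry the Pfam tyrosinase domain. The closest Swiss-Prot match of AOL_s00215g501 is a tyrosinase of Aspergillus fumigatus (listed as Neosartorya fumigata), and that of AOL_s00210g370 is a tyrosinase of Podospora anserina. Their coding lengths are 2082 and 2310 bases.

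Tyrosinases are copper enzymes that hydroxylate monophenols such as tyrosine to diphenols and oxidise these to quinones. The quinones polymerise into melanins and other dark pigments, and in fungi such pigments are found in cell walls and spores. The study addressed signalling by cyclic AMP (cAMP), which adenylate cyclase makes from ATP and which releases the catalytic subunits of cAMP-dependent protein kinase (PKA) from their inhibitory partner.

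Hyphae of strain ATCC 24927 were grown on potato dextrose agar at 28 °C, and RNA was sequenced in 24 libraries, 3 in each of 8 groups. In the PkaC1 experiment wild type was compared with a mutant whose labels give an AoPkaC1 deletion (a PKA catalytic subunit), and in the Acy experiment another set of wild type libraries with a mutant whose labels give an AoAcy deletion (the adenylate cyclase). Hyphae were taken either at 0 h, called untreated here, or at 12 h of exposure to nematode extract, which induces traps. No group was kept for 12 h without extract, so the extract and the time cannot be told apart. The series' design text names a ΔAorlmA mutant, which appears in no sample label, and groups were taken from the sample labels. Values are TPM, a level scaled for gene length and for the total of its library. TPM keep no read counts, so the depth behind a value is unknown. The sample labels do not name separate cultures for replicates, so p-values measure the spread between libraries only, which may be technical. A change in level can reflect fewer hyphal cells expressing a gene or less RNA per cell, which cannot be told apart in bulk samples. Means are followed by the SD and log2 fold changes by the SE, with n = 3 libraries per group. The SE of a gene rests on a common spread fitted over all 4 groups of an experiment, not on the groups compared alone.

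TPM above 0 were still given for the genes that best match the deletion targets in all mutant libraries. The annotated adenylate cyclase AOL_s00080g284 was at 10.3 ± 0.906 TPM in the untreated libraries labelled Acy deletion, against 16.5 ± 0.777 TPM in wild type. Of the PKA catalytic candidates, AOL_s00043g480 was at 48.5 ± 4.03 against 69.6 ± 0.943 TPM in the untreated PkaC1 experiment and AOL_s00078g405 was at 51.2 ± 5.03 against 57.1 ± 1.1 TPM. "Deletion" is therefore the label of a library in every direction given here. The wild type libraries of the PkaC1 experiment lay close together, with a median coefficient of variation of 1.71% and 1.998% among genes at 1000 TPM or more, against 6.13% to 18.1% in the other groups. With each wild type group averaged into 1 library fewer genes were called, and the count is given where that moved a count of listed genes by more than 1.5 times or ended the call of a named gene.

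AOL_s00215g501 was nearly silent in the wild type of the PkaC1 experiment and reached a high level in the untreated libraries labelled PkaC1 deletion. Untreated wild type libraries held 0.49, 0.67 and 0.65 TPM, and induced wild type libraries 0.05, 0 and 0.09 TPM. Untreated libraries labelled PkaC1 deletion held 189.93, 141.28 and 144.48 TPM (mean 158.6 ± 27.2), and induced ones 3.73, 3.27 and 4.38 TPM (mean 3.79 ± 0.558). None of the 4 groups overlapped, and the libraries labelled deletion were above wild type with and without induction. For comparison, the groups did not overlap for 43.1% (higher) and 25.5% (lower) of genes tested in the untreated deletion comparison, 21.1% and 55.1% in the induced one, 33.7% and 47.6% on induction of wild type, and 18.3% and 60.7% on induction of the deletion. For AOL_s00215g501 the order from high to low was untreated deletion, induced deletion, untreated wild type and induced wild type. With its untreated mean of 158.6 TPM the gene ranked 938 of 11479 in the deletion, and with 0.603 TPM it ranked 8657 in wild type.

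On the log2(TPM + 1) scale, where changes of low genes come out too small, AOL_s00215g501 was 6.63 ± 0.139 higher in the untreated libraries labelled PkaC1 deletion than in wild type. The ratio of the mean TPM was 263, and 7 of the 8977 genes tested had a larger log2 fold change. In the induced libraries the difference was 2.19 ± 0.139. Induction went with a log2 fold change of -5.05 ± 0.139 in the deletion, a 41.8-fold lower mean TPM, and of -0.61 ± 0.139 in wild type, where the level was already near 0. The difference between both induction responses was -4.44 ± 0.196. AOL_s00215g501 passed the filter on low values (1 TPM or more in at least 3 of 12 libraries) through the deletion libraries, since no wild type library reached 1 TPM.

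In the Acy experiment the same gene was low in untreated wild type and higher in induced wild type. It was close to 0 in the libraries labelled Acy deletion. By group mean it ranked 8480 of 11479 in untreated wild type, near its rank of 8657 in the untreated PkaC1 wild type. In induced wild type it ranked 5603. Untreated wild type libraries held 1.23, 1.45 and 4.09 TPM (mean 2.26 ± 1.59), and induced wild type libraries 9.73, 19.18 and 22.48 TPM (mean 17.1 ± 6.62). Untreated libraries labelled Acy deletion held 0, 0.1 and 0.03 TPM, and induced ones 0.12, 0.09 and 0.14 TPM. Among all genes tested, groups without overlap made up 31% (higher) and 19.2% (lower) in the untreated deletion comparison, 50.4% and 16.4% in the induced one, 13.2% and 34.1% on induction of wild type, and 16.9% and 7.07% on induction of the deletion. For AOL_s00215g501 every wild type library was above every deletion library, induced wild type was above untreated wild type, and the untreated and induced deletion libraries overlapped each other.

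The log2 fold change of AOL_s00215g501 between libraries labelled Acy deletion and wild type was -1.54 ± 0.323 untreated and -3.94 ± 0.323 after induction. Only 20 of the 9617 genes tested in the Acy experiment had a lower log2 fold change in the induced libraries. Induction went with 2.50 ± 0.323 in wild type, a 7.59-fold higher mean TPM, and with 0.10 ± 0.323 in the deletion. This SE is shared by all groups, while the deletion libraries themselves lay between 0 and 0.14 TPM. The third untreated wild type library, at 4.09 TPM, was the highest of its group, and without it the untreated difference was -1.16. Here the gene passed the filter through the wild type libraries alone.

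**Figure D1:**
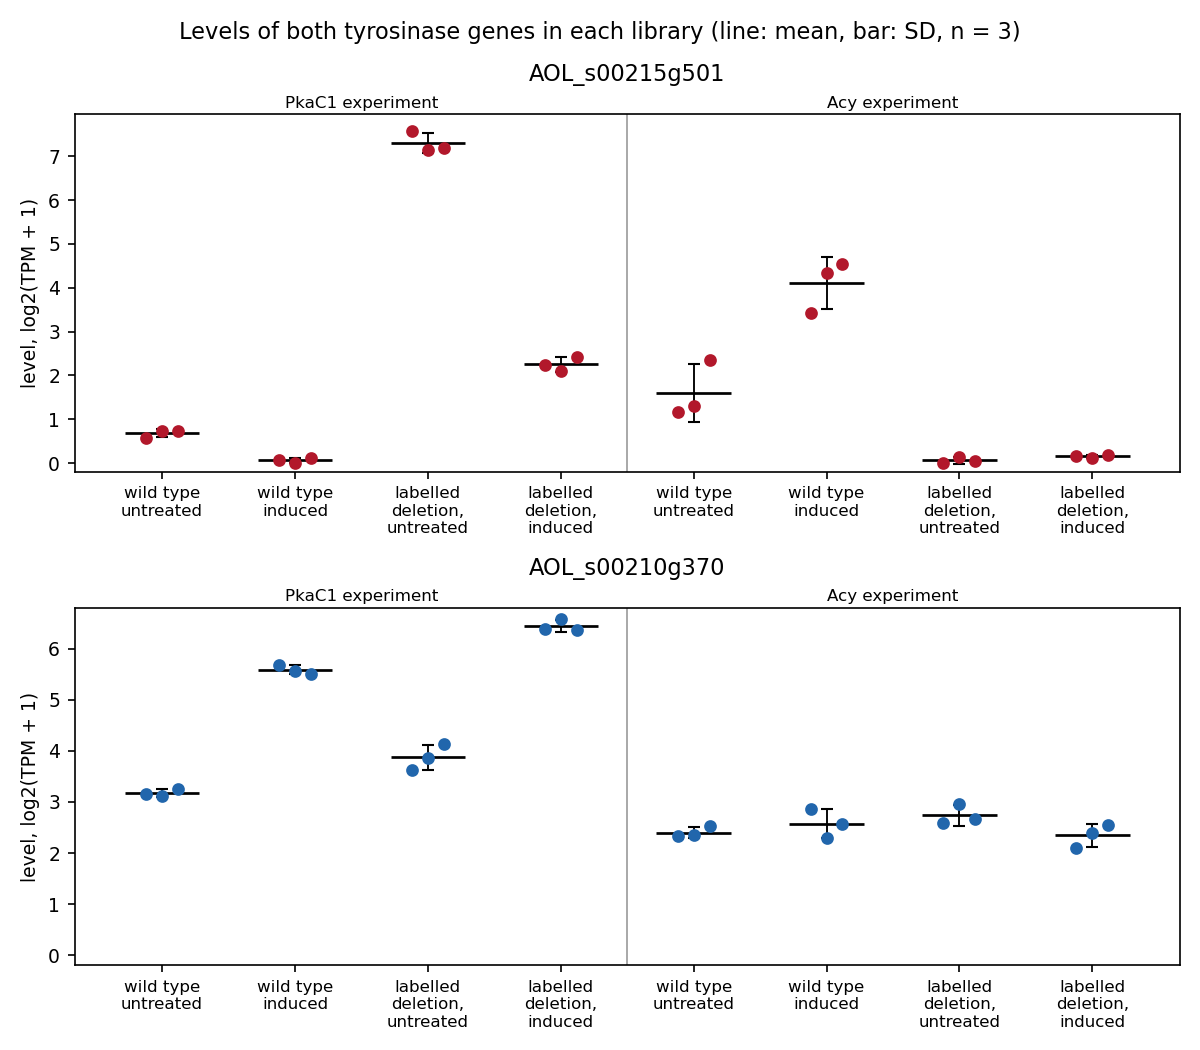
Level of AOL_s00215g501 (top) and AOL_s00210g370 (bottom) in each library on the log2(TPM + 1) scale, with the group mean (line) and SD (bar) of 3 libraries. Within the PkaC1 experiment AOL_s00215g501 is highest in the untreated libraries labelled deletion (158.6 TPM). Within the Acy experiment it is highest in induced wild type (17.1 TPM), where it ranks 5603 of 11479 genes. AOL_s00210g370 is highest in both induced groups of the PkaC1 experiment (47.2 and 86.4 TPM).

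The wild types of both experiments carry the same strain, treatment and time in their labels, yet AOL_s00215g501 differed between untreated and induced libraries in opposite directions, with log2 fold changes of -0.61 (PkaC1 experiment) and 2.50 (Acy experiment). Both tables were deposited separately and the difference was not tested. For AOL_s00215g501 the authors' deposited table lists log2 fold changes of 7.92 (untreated) and 6.69 (induced) between PkaC1 deletion and wild type, and of -5.76 and -7.62 between Acy deletion and wild type. In the same authors' deposited table its induction values are -3.30 in wild type and -4.60 in the deletion of the PkaC1 experiment, and 3.13 and 1.28 in the Acy experiment.

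AOL_s00210g370 differed more between treatments than between strain labels in the PkaC1 experiment. Untreated wild type libraries held 7.87, 7.63 and 8.55 TPM (mean 8.02 ± 0.477), and induced wild type libraries 50.4, 46.64 and 44.5 TPM (mean 47.2 ± 2.99). Untreated libraries labelled PkaC1 deletion held 11.42, 13.62 and 16.46 TPM (mean 13.8 ± 2.53), and induced ones 83.03, 94.6 and 81.66 TPM (mean 86.4 ± 7.11). All 4 groups were separate, and the order from high to low was induced deletion, induced wild type, untreated deletion and untreated wild type. Groups without overlap in the same direction made up 43.1% of all genes tested in the untreated deletion comparison and 21.1% in the induced one. On induction they made up 33.7% in wild type and 18.3% in the deletion.

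The log2 fold change of AOL_s00210g370 on induction was 2.42 ± 0.118 in wild type and 2.57 ± 0.118 in the libraries labelled PkaC1 deletion, or 5.89 and 6.25 times the untreated mean TPM. The difference between these responses was 0.15 ± 0.167. The deletion libraries were above wild type by 0.71 ± 0.118 untreated and 0.86 ± 0.118 induced, or 1.73 and 1.83 times its mean TPM. These values stood beside medians over all genes tested of 0.20 and -0.39, and of -0.16 and -0.72 for induction in wild type and deletion. With libraries scaled to the same median TPM the difference between the responses of AOL_s00210g370 was 0.83.

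Across the Acy experiment AOL_s00210g370 stayed between 3.3 and 6.77 TPM in all 12 libraries. Untreated wild type libraries held 4.06, 4.08 and 4.74 TPM, and induced wild type libraries 6.3, 3.89 and 4.95 TPM. Untreated libraries labelled Acy deletion held 4.99, 6.77 and 5.35 TPM, and induced ones 3.3, 4.26 and 4.84 TPM. Each group overlapped its neighbour in the order of means, while the first and the last did not overlap, which were 5.70, 5.05, 4.29 and 4.13 TPM for untreated deletion, induced wild type, untreated wild type and induced deletion. The untreated deletion libraries all lay above the untreated wild type libraries, with a log2 fold change of 0.33 ± 0.192, and above the induced deletion libraries, with -0.39 ± 0.192 for induction in the deletion. Such separation in the same direction held for 31% and 7.07% of all genes tested in these comparisons. The other differences were -0.23 ± 0.192 between the induced groups and 0.18 ± 0.192 for induction in wild type. For AOL_s00210g370 the authors' deposited table lists 2.68 and 3.49 for induction of wild type and deletion in the PkaC1 experiment, and 0.42 and -0.56 in the Acy experiment. The PkaC1 values lie further apart than the 2.42 and 2.57 given here. Between deletion and wild type it lists 0.58 (untreated) and 1.46 (induced) in the PkaC1 experiment, and 0.27 and -0.68 in the Acy experiment. Both induced values are larger in size than the 0.86 and -0.23 given here.

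The genes thus differed from each other in pattern. Their levels correlated at r = -0.26 over the 12 PkaC1 libraries and at r = 0.014 over the 12 Acy libraries, which is a description of libraries that share groups. On the TPM scale AOL_s00210g370 was the more abundant gene in all wild type libraries of the PkaC1 experiment, and AOL_s00215g501 was the more abundant in all 3 untreated libraries labelled PkaC1 deletion.

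The 17 tyrosinase genes differed widely in level, and 1 gene dominated their sum. AOL_s00170g41, matched to polyphenol oxidase 1 of the mushroom Agaricus bisporus, made up 74.6% to 81.6% of the summed tyrosinase TPM in the 4 PkaC1 groups and 31.8% to 53.9% in the 4 Acy groups, as group means. The sum was 1046 ± 8.5 TPM in untreated and 863 ± 2.96 TPM in induced wild type of the PkaC1 experiment, and 2605 ± 26.2 and 995 ± 22.3 TPM in the libraries labelled PkaC1 deletion. AOL_s00215g501 made up 6.09% of this sum in the untreated deletion libraries, ranking 3 of 17, against 0.0576% in untreated wild type. AOL_s00210g370 made up 8.69% in the induced deletion libraries, ranking 2 of 17, and 5.47% in induced wild type, ranking 3. The Acy sums were 664 ± 29.6 and 381 ± 31.9 TPM in untreated and induced wild type and 543 ± 86.6 and 514 ± 11.5 TPM in the deletion, and AOL_s00215g501 reached 4.57% in induced wild type.

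**Figure D2:**
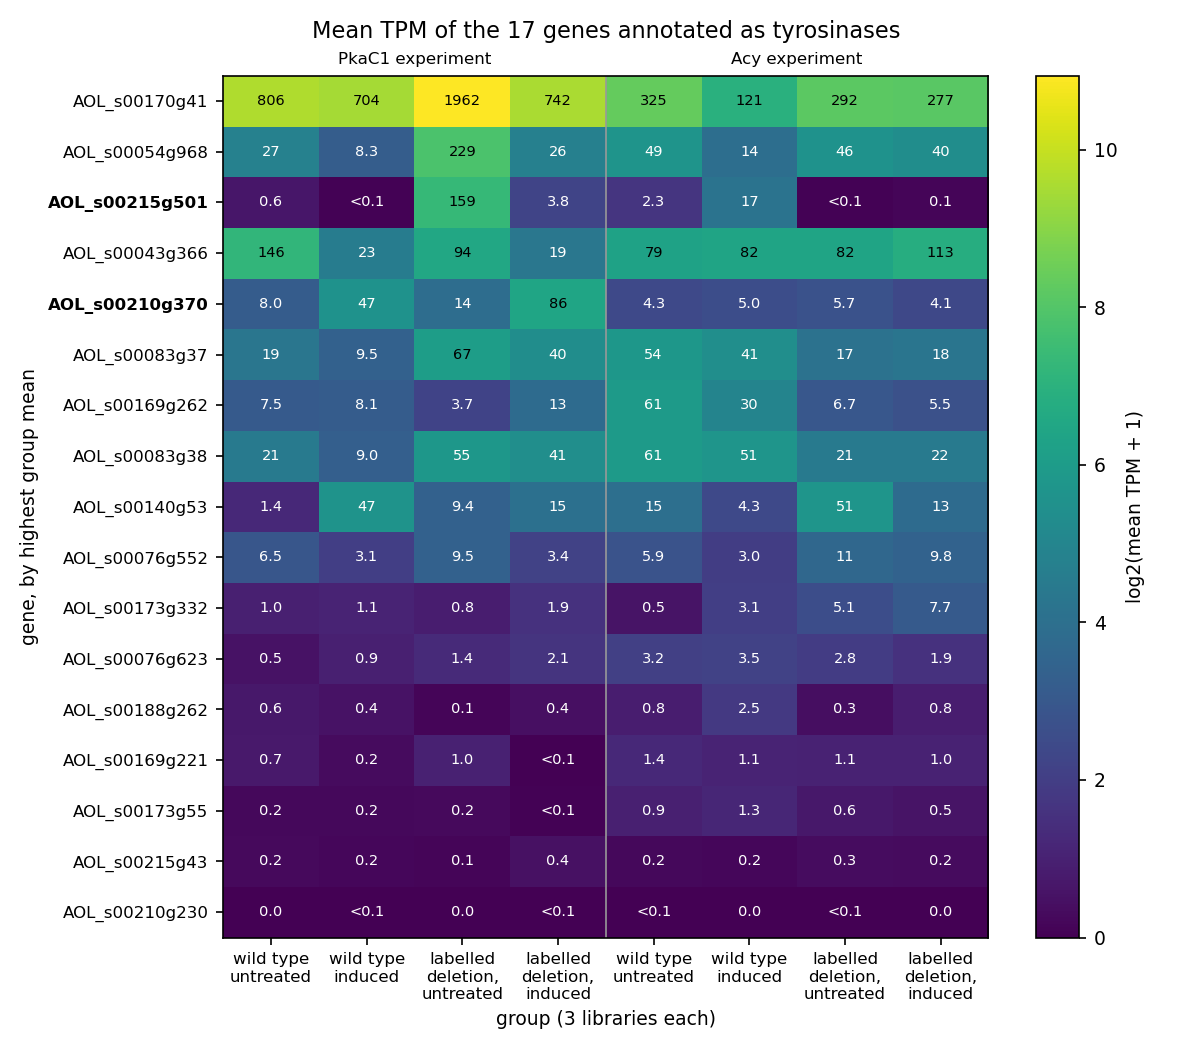
Mean TPM of the 17 genes annotated as tyrosinases (rows, ordered by their highest group mean) in the 8 groups (columns, 3 libraries each), with colour on the log2(mean TPM + 1) scale and both genes described here in bold. AOL_s00170g41 is the highest gene in every group, and AOL_s00215g501 varies from below 0.1 to 158.6 TPM.

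Of the 15 other tyrosinase genes, 10 passed the filter of the PkaC1 experiment, and 13 passed that of the Acy experiment. In the untreated libraries labelled PkaC1 deletion 7 of the 10 rose and 2 fell at a limma adjusted p under 0.05, where 64.7% of all genes tested were called, 40.7% higher and 24% lower. The median log2 fold change of the 10 was 1.013, beside 0.20 over all genes tested. AOL_s00054g968, matched to the tyrosinase of Neurospora crassa, rose from 27.4 ± 0.854 to 229 ± 63.3 TPM (2.98 ± 0.147, limma adjusted p = 1.16e-08), the largest increase among the 10. AOL_s00140g53, matched to the tyrosinase-like protein OrsC of the orsellinic acid cluster of Aspergillus nidulans, rose from 1.39 ± 0.241 to 9.4 ± 2.62 TPM (2.09 ± 0.187, adjusted p = 1.93e-06). AOL_s00170g41 rose from 806 ± 8.15 to 1962 ± 133 TPM (1.28 ± 0.0593, adjusted p = 7.19e-09), while AOL_s00043g366 fell from 146 ± 1.81 to 94.2 ± 15.9 TPM (-0.64 ± 0.121, adjusted p = 0.000745). AOL_s00169g262, a second OrsC match, also fell (-0.87 ± 0.162, adjusted p = 0.000633). With the 3 libraries of each wild type group averaged into 1 6 of the 10 were called and AOL_s00043g366 was not (adjusted p = 0.074).

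After induction 6 of the 10 were higher in the libraries labelled PkaC1 deletion and 1 was lower, where 70.9% of all genes tested were called, 18.9% higher and 52% lower. Their median was 0.53, beside -0.39 over all genes tested. The neighbours AOL_s00083g37 and AOL_s00083g38, matched to tyrosinases of Podospora anserina and Neurospora crassa, were 1.96 ± 0.0965 and 2.06 ± 0.0975 higher (adjusted p = 2.31e-08 and 1.75e-08). AOL_s00140g53 was the gene that was lower, at 15.4 ± 3.49 against 47.4 ± 2.44 TPM (-1.58 ± 0.187, adjusted p = 1.86e-05). With the 3 libraries of each wild type group averaged into 1 4 of the 10 were called.

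On induction in the PkaC1 experiment more of the other tyrosinase genes fell than rose, as was the case among all genes tested. In the deletion this order turned round with scaling. In wild type 1 of 10 rose and 6 fell, where 69.7% of all genes tested were called, 28.1% higher and 41.6% lower. In the libraries labelled deletion 3 rose and 6 fell, where 81.6% were called, 19.4% higher and 62.2% lower. With libraries scaled to the same median TPM the deletion count was 5 rising and 4 falling. AOL_s00140g53 was the member that rose in wild type, by 4.34 ± 0.187 (adjusted p = 2.76e-09), and it rose by 0.67 ± 0.187 in the deletion (adjusted p = 0.00587). This difference between responses was -3.67 ± 0.265 (adjusted p = 5.25e-07), 1 of 3 positive and 3 negative differences among the 10, where 71.9% of all genes had a called difference, 18% positive and 53.9% negative. AOL_s00054g968 fell, with log2 fold changes of -1.61 ± 0.147 in wild type and -3.05 ± 0.147 in the deletion (adjusted p = 1.36e-06 and 4.38e-09). AOL_s00083g37 and AOL_s00083g38 fell in the deletion (log2 fold changes -0.74 ± 0.0965 and -0.42 ± 0.0975, adjusted p = 2.14e-05 and 0.00175), but scaling turned these values to 0.18 and 0.49. The log2 fold change of AOL_s00210g370 on induction was exceeded by 1 of the 10 in wild type and by none of them in the deletion.

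**Figure D3:**
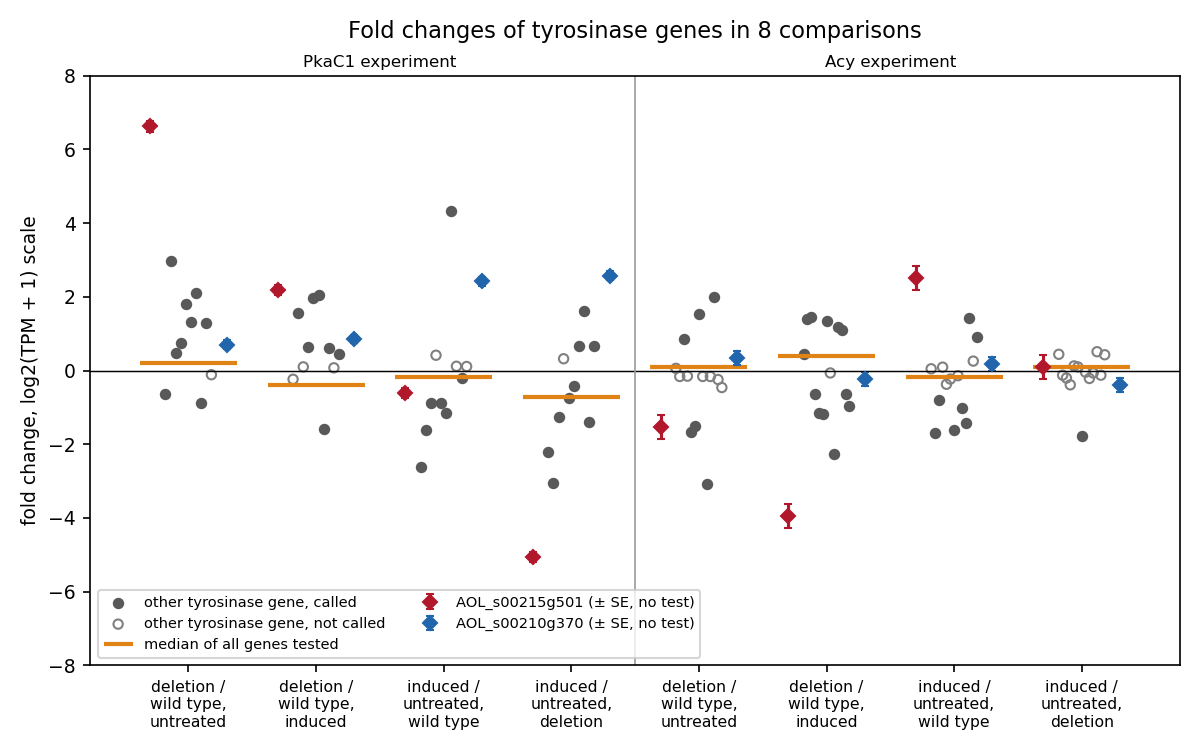
Fold change on the log2(TPM + 1) scale (vertical axis) of AOL_s00215g501 and AOL_s00210g370 (diamonds, bars are SE, no test) and of the other tested tyrosinase genes (circles, filled where called at limma adjusted p under 0.05) in 8 comparisons, with the median of all genes tested as a bar. AOL_s00215g501 stands at 6.63 in the untreated PkaC1 deletion comparison, where the other 10 genes reach 2.98, and at -3.94 in the induced Acy deletion comparison, where the lowest of the other 13 is at -2.26.

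The other tyrosinase genes were split in direction in the Acy experiment. In the untreated libraries labelled Acy deletion 3 of 13 rose and 3 fell, where 42.1% of all genes tested were called, 26.6% higher and 15.6% lower. After induction 6 rose and 6 fell, where 59.2% were called, 45.5% higher and 13.7% lower. The medians were -0.16 and -0.066, beside 0.11 and 0.39 over all genes tested. AOL_s00169g262 fell most, from 61.4 ± 12.4 to 6.72 ± 2.98 TPM untreated (-3.07 ± 0.283, adjusted p = 3.2e-06) and from 29.8 ± 5.98 to 5.48 ± 1.76 TPM induced (-2.26 ± 0.283, adjusted p = 2.89e-05). AOL_s00083g37 and AOL_s00083g38, which were higher in the PkaC1 deletion, fell in both Acy comparisons. Their log2 fold changes were -1.65 ± 0.184 and -1.51 ± 0.267 in the untreated deletion (adjusted p = 1.53e-05 and 0.000634) and -1.16 ± 0.184 and -1.18 ± 0.267 in the induced one (adjusted p = 0.000203 and 0.00246). AOL_s00215g501 had the same signs as this neighbouring pair in the deletion comparisons of both experiments, and the difference between experiments was not tested. AOL_s00083g38 carries no Pfam tyrosinase domain, unlike the other 16 tyrosinase genes. Whether this gene and its neighbour vary independently was not tested. AOL_s00054g968 was at 46.2 ± 18.9 against 49.1 ± 9.25 TPM untreated and rose in the induced libraries from 14.4 ± 1.53 to 39.6 ± 2.19 TPM (1.40 ± 0.263, adjusted p = 0.000674). AOL_s00173g332, a further match to polyphenol oxidase 1, rose from 0.513 ± 0.25 to 5.06 ± 1.04 TPM untreated (2.001 ± 0.247, adjusted p = 3.55e-05).

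On induction of the Acy wild type 2 of 13 rose and 5 fell, where 28.6% of all genes tested were called, 9.2% higher and 19.4% lower. In the libraries labelled deletion none rose and 1 (AOL_s00140g53) fell, where 4.99% were called, 3.66% higher and 1.33% lower. That call was lost in a fit of only the groups compared, and leaving out 1 library at a time gave 0 to 1 called tyrosinase genes. The responses differed in 2 of 13, both positive, where 19.3% of all genes had a called difference, 14.2% positive and 5.1% negative. AOL_s00188g262, matched to a tyrosinase of Aspergillus oryzae, rose in wild type from 0.847 ± 0.297 to 2.5 ± 0.621 TPM (0.92 ± 0.208, adjusted p = 0.00693), and AOL_s00173g332 rose by 1.42 ± 0.247 (adjusted p = 0.00145). AOL_s00215g501 had a larger log2 fold change here than any of the 13. AOL_s00140g53, which rose on induction in the PkaC1 wild type, fell in both Acy strains, with -1.60 ± 0.387 in wild type and -1.78 ± 0.387 in the deletion (adjusted p = 0.00972 and 0.0212). The polyphenol oxidase AOL_s00170g41 fell from 325 ± 26.3 to 121 ± 11.5 TPM in wild type (-1.41 ± 0.132, adjusted p = 1.25e-05) and was at 292 ± 44.4 and 277 ± 16.4 TPM in the deletion. The remaining tyrosinase genes were low. AOL_s00076g552 stayed between 2.96 and 11.5 TPM in group means and AOL_s00076g623 at or below 3.45 TPM, both OrsC matches. Of the 13, AOL_s00076g552 had the highest log2 fold change in the induced Acy deletion comparison, at 1.45 (from 2.96 to 9.80 TPM). AOL_s00169g221 and AOL_s00173g55 stayed at or below 1.37 TPM, and AOL_s00210g230 and AOL_s00215g43, which were tested in neither experiment, at or below 0.413 TPM.

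Tyrosine, a substrate of tyrosinases, is otherwise broken down to fumarate and acetoacetate, and genes for 4 enzymes of that route lie close together by locus number. Which substrates the enzymes described here use was not measured. Of 11 genes matched on words for tyrosine or phenylalanine breakdown 10 were tested. The match also took in AOL_s00043g733 (named as a pre-rRNA-processing protein), AOL_s00110g22 (an uncharacterized hydrolase) and AOL_s00043g293 (a fumarylacetoacetate hydrolase domain protein). Their mean TPM went from 5.07 to 16.6, from 57.6 to 135 and from 76.2 to 134 on induction of the PkaC1 wild type. They are part of the counts and medians below. On induction in the PkaC1 experiment 8 rose and 1 fell in wild type, with a median of 1.08, where 28.1% of all genes tested rose and 41.6% fell. In the deletion 6 rose and 1 fell, with a median of 0.63, where 19.4% of all genes rose and 62.2% fell. With libraries scaled to the same median the deletion count was 9 rising and 1 falling. 4-hydroxyphenylpyruvate dioxygenase (AOL_s00097g549), an early step, rose from 64.6 ± 0.69 to 641 ± 10 TPM in wild type (3.29 ± 0.0595, adjusted p = 7.67e-12) and from 95.4 ± 4.54 to 571 ± 35.1 TPM in the deletion (2.57 ± 0.0595, adjusted p = 2.41e-11). Homogentisate dioxygenase (AOL_s00097g551) rose by 2.82 ± 0.088 and 1.74 ± 0.088 (adjusted p = 2.37e-10 and 6.46e-09), and fumarylacetoacetase (AOL_s00097g556), the last step, by 2.14 ± 0.0871 and 1.78 ± 0.0871 (adjusted p = 1.72e-09 and 4.88e-09). Maleylacetoacetate isomerase (AOL_s00097g553), chosen after its values were seen because it lies between them, was at 34.4 ± 4.36 and 36.9 ± 2.61 TPM in wild type. AOL_s00215g295, an aromatic amino acid aminotransferase, fell, with -2.03 ± 0.149 in wild type and -2.28 ± 0.149 in the deletion (adjusted p = 2.15e-07 and 5.36e-08).

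Of the 10 tested genes of the breakdown list 1 rose and 3 fell on induction of the Acy wild type, where 9.2% of all genes rose and 19.4% fell. None was called in that deletion, where 4.99% of all genes were. The dioxygenase AOL_s00097g549 was at 10.4 ± 5.84 and 10.2 ± 2.14 TPM in untreated and induced wild type. In the PkaC1 deletion 5 of the 10 rose and 1 fell untreated, beside 40.7% and 24% of all genes, and 3 rose and 3 fell induced, beside 18.9% and 52%. With libraries scaled to the same median these counts became 5 and 3, and 6 and 1. In the Acy deletion 1 rose and 3 fell untreated, beside 26.6% and 15.6% of all genes, and 3 rose and 2 fell induced, beside 45.5% and 13.7%. Scaling left none rising in either, with 4 falling untreated and 5 induced.

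**Figure D4:**
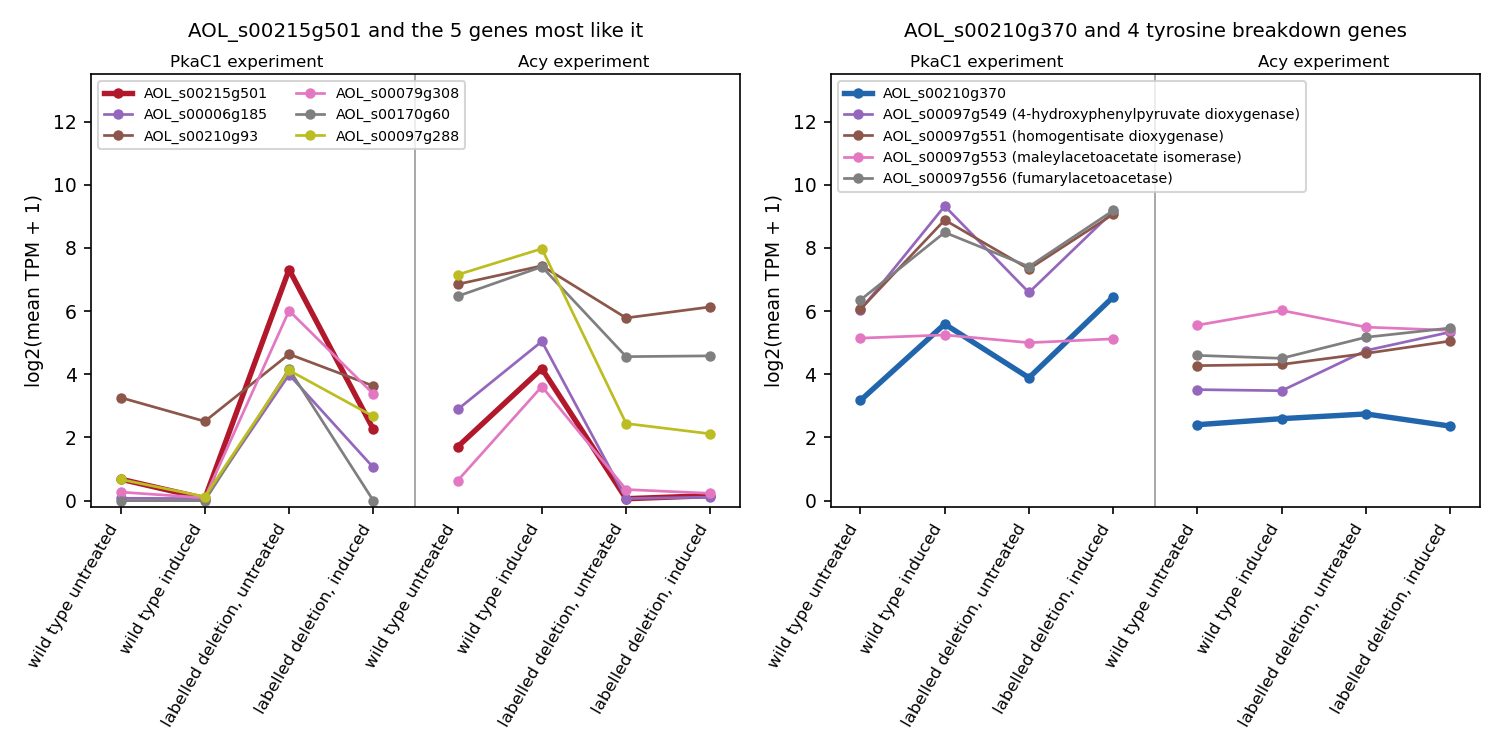
Group means on the log2(mean TPM + 1) scale across the 8 groups for AOL_s00215g501 with the 5 genes most like it (left) and for AOL_s00210g370 with 4 tyrosine breakdown genes (right). Within the PkaC1 experiment all genes on the left are highest in the untreated libraries labelled deletion, and within the Acy experiment they are higher in wild type. The 5 genes were chosen by correlation over these libraries, so this shared pattern follows from the choice. On the right 3 of the 4 breakdown genes are higher in the induced libraries of the PkaC1 experiment.

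The lists matched on words for laccases, multicopper oxidases and pigment enzymes held few genes, and the roles of these genes were not tested. Of 5 laccases and multicopper oxidases 2 were tested with the PkaC1 libraries and 5 with the Acy libraries. AOL_s00173g61, matched to laccase 1 of Cryptococcus, which makes melanin in that yeast, fell in the untreated libraries labelled PkaC1 deletion from 52.5 ± 2.93 to 6.5 ± 0.594 TPM (-2.84 ± 0.0993, adjusted p = 7.7e-10) and on induction of that wild type to 4.18 ± 0.293 TPM (-3.37 ± 0.0993, adjusted p = 1.69e-10). AOL_s00097g347, matched to the iron transport oxidase FET3, rose there by 1.34 ± 0.194 (adjusted p = 0.000102) and fell in the untreated Acy deletion (-2.11 ± 0.233, adjusted p = 1.45e-05). AOL_s00173g74, matched to multicopper oxidase AurL2 of the aurofusarin pigment cluster of Fusarium, was at 4.9 ± 0.569 TPM in the induced Acy wild type and at 0.23 ± 0.156 TPM in the deletion, and it passed the filter through wild type alone. AOL_s00007g244, matched to dihydrogeodin oxidase, rose in the untreated Acy deletion by 1.04 ± 0.195 (adjusted p = 0.00092). In the Acy deletion 2 of 5 rose and 3 fell untreated, beside 26.6% and 15.6% of all genes, and 1 rose and 3 fell induced, beside 45.5% and 13.7%.

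Of 5 genes in the list of melanin and pigment enzymes 3 were tested with the PkaC1 libraries and 4 with the Acy libraries. The list was matched on words and holds polyketide synthases and a chalcone synthase match, and a role of these genes in pigment was not tested. In the PkaC1 deletion 1 rose and 2 fell untreated, beside 40.7% and 24% of all genes, and 2 rose and 1 fell induced, beside 18.9% and 52%. With each wild type group averaged into 1 library 1 of the 3 was called in the induced comparison. In the Acy deletion none rose and 3 fell untreated, beside 26.6% and 15.6% of all genes, and none rose and 2 fell induced, beside 45.5% and 13.7%. AOL_s00215g283, matched to 6-methylsalicylic acid synthase, was at 297 ± 4.17 TPM in untreated wild type and 5.85 ± 1.36 TPM in the untreated PkaC1 deletion (-5.46 ± 0.126, adjusted p = 4.71e-11). It also fell in the untreated Acy deletion (-2.50 ± 0.243, adjusted p = 4.98e-06). The chalcone synthase match AOL_s00043g287 fell in both untreated deletions, with -1.43 ± 0.0941 (adjusted p = 1.46e-07) and -1.44 ± 0.215 (adjusted p = 0.000168). The polyketide synthase AOL_s00043g828 rose on induction of both Acy strains, by 3.34 ± 0.578 in wild type (adjusted p = 0.00138) and 3.18 ± 0.578 in the deletion (adjusted p = 0.00915). The polyketide synthase AOL_s00215g926 rose by 0.67 ± 0.134 in the untreated PkaC1 deletion (adjusted p = 0.00105, or 0.0525 with each wild type group averaged into 1 library) and fell in the untreated Acy deletion (-0.69 ± 0.159, adjusted p = 0.00389).

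Tyrosinases need copper, and 11 genes were annotated for copper handling, of which 9 were tested with the PkaC1 libraries and 10 with the Acy libraries. In the PkaC1 deletion 4 of the 9 rose and 4 fell untreated, beside 40.7% and 24% of all genes, and 1 rose and 6 fell induced, beside 18.9% and 52%. With each wild type group averaged into 1 library 4 of the 9 were called in each. Scaling to the same median made these counts 2 and 4, and 3 and 5. In the Acy deletion 3 of the 10 rose and 1 fell untreated, beside 26.6% and 15.6% of all genes, and 5 rose and none fell induced, beside 45.5% and 13.7%. Scaled, 3 rose and 3 fell in the induced Acy comparison. AOL_s00054g391, matched to GRISEA, a copper-dependent transcription factor that controls copper uptake in Podospora anserina, was listed at 0 in all 6 libraries labelled PkaC1 deletion, while wild type held 5.96 to 9.05 TPM untreated and 2.76 to 3.48 TPM induced. It passed that filter through wild type alone, and an exact 0 in TPM can be a failed estimate. In the Acy deletion it rose from 4.14 ± 0.538 to 7.8 ± 0.766 TPM untreated (0.78 ± 0.154, adjusted p = 0.00133). The copper transporter AOL_s00112g103 fell on induction in both PkaC1 strains, with -1.62 ± 0.112 and -2.08 ± 0.112 (adjusted p = 1.24e-07 and 1.06e-08), and the transporter AOL_s00006g231 rose on induction of the Acy wild type (2.12 ± 0.609, adjusted p = 0.0223). The copper chaperone AOL_s00078g314, with a COX17 domain, fell in the untreated Acy deletion from 135 ± 42 to 50.6 ± 9.88 TPM (-1.37 ± 0.406, adjusted p = 0.016).

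In the untreated PkaC1 deletion comparison the tested genes beside AOL_s00215g501 by locus number did not share its fold change. Of the 20 genes within 10 locus numbers 14 were tested in the PkaC1 experiment, and in the untreated deletion comparison 2 rose and 3 fell, beside 40.7% and 24% of all genes, with log2 fold changes from -0.99 to 0.49. With each wild type group averaged into 1 library 1 of the 14 was called. In level AOL_s00215g504, at 168.2 ± 6.79 TPM in the untreated PkaC1 deletion, was near the 158.6 TPM of AOL_s00215g501 there. The next gene on one side, AOL_s00215g500, was listed at 0 in all 24 libraries, and the next on the other side, the protein kinase AOL_s00215g502, was at 3.84 ± 0.413 TPM in untreated wild type and 4.5 ± 1.02 TPM in the deletion. In the induced Acy comparison 9 of 18 tested neighbours rose and 2 fell, beside 45.5% and 13.7% of all genes. AOL_s00215g497 fell there, at 11.1 ± 5.83 against 1.66 ± 1.44 TPM (-2.29 ± 0.527, adjusted p = 0.00266). The other that fell, AOL_s00215g499, which has no annotated name, passed the filter through the induced Acy wild type alone, with 6.84, 1.65 and 2.89 TPM against at most 0.44 TPM in the other 9 libraries. Its log2 fold change on induction of the Acy wild type was 2.11, beside 2.50 for AOL_s00215g501. Of the 18 tested neighbours 2 rose and 2 fell there, beside 9.2% and 19.4% of all genes. On the other side AOL_s00215g505 rose in the induced Acy deletion (2.44 ± 0.212, adjusted p = 1.25e-06). AOL_s00215g495 rose on induction of the libraries labelled PkaC1 deletion (2.17 ± 0.78, adjusted p = 0.0228, or 0.0765 with each wild type group averaged into 1 library), where its libraries spread from 0.89 to 24.27 TPM untreated and from 16.66 to 55.32 TPM induced. With libraries scaled to the same median 4 of the 18 neighbours rose and 5 fell in the induced Acy comparison.

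Around AOL_s00210g370, 15 neighbours were tested in the PkaC1 experiment. On induction 5 rose and 4 fell in wild type, beside 28.1% and 41.6% of all genes, and 8 rose and 7 fell in the deletion, beside 19.4% and 62.2%. Together these were 9 of 15 where 69.7% of all genes were called, and 15 of 15 where 81.6% were. With each wild type group averaged into 1 library 5 of the 15 were called in wild type. Scaled to the same median, 9 rose and 3 fell in the deletion. The 6 genes just before it by locus number all rose in the deletion, a run chosen after the values were seen, while 2 of them, AOL_s00210g367 and AOL_s00210g369, fell in wild type. With each wild type group averaged into 1 library AOL_s00210g369 was called in neither (adjusted p = 0.265 in wild type and 0.0544 in the deletion). Among them the efflux pump match AOL_s00210g366 rose from 16.8 ± 0.483 to 42.8 ± 0.79 TPM in wild type (1.304 ± 0.086, adjusted p = 8.68e-08) and from 12.3 ± 1.18 to 73.1 ± 6.3 TPM in the deletion (2.48 ± 0.086, adjusted p = 3.78e-10). AOL_s00210g364 rose by 0.73 ± 0.256 and 1.54 ± 0.256 (adjusted p = 0.0247 and 0.00015, the first 0.351 with each wild type group averaged into 1 library), and it fell in the induced Acy deletion (-2.90 ± 0.663, adjusted p = 0.00256). On the far side AOL_s00210g374, which has no annotated name, fell from 208 ± 4.27 to 29.6 ± 1.52 TPM in wild type (-2.77 ± 0.141, adjusted p = 1.05e-08) and from 1101 ± 290 to 81.2 ± 6.81 TPM in the deletion (-3.72 ± 0.141, adjusted p = 7.63e-10). AOL_s00210g379 rose in the deletion (1.81 ± 0.113, adjusted p = 3.7e-08), and its wild type value was 0.23 ± 0.113. On the Acy side 2 of 17 neighbours rose and 2 fell on induction of wild type, beside 9.2% and 19.4% of all genes, and none was called in the deletion, beside 4.99%.

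**Figure D5:**
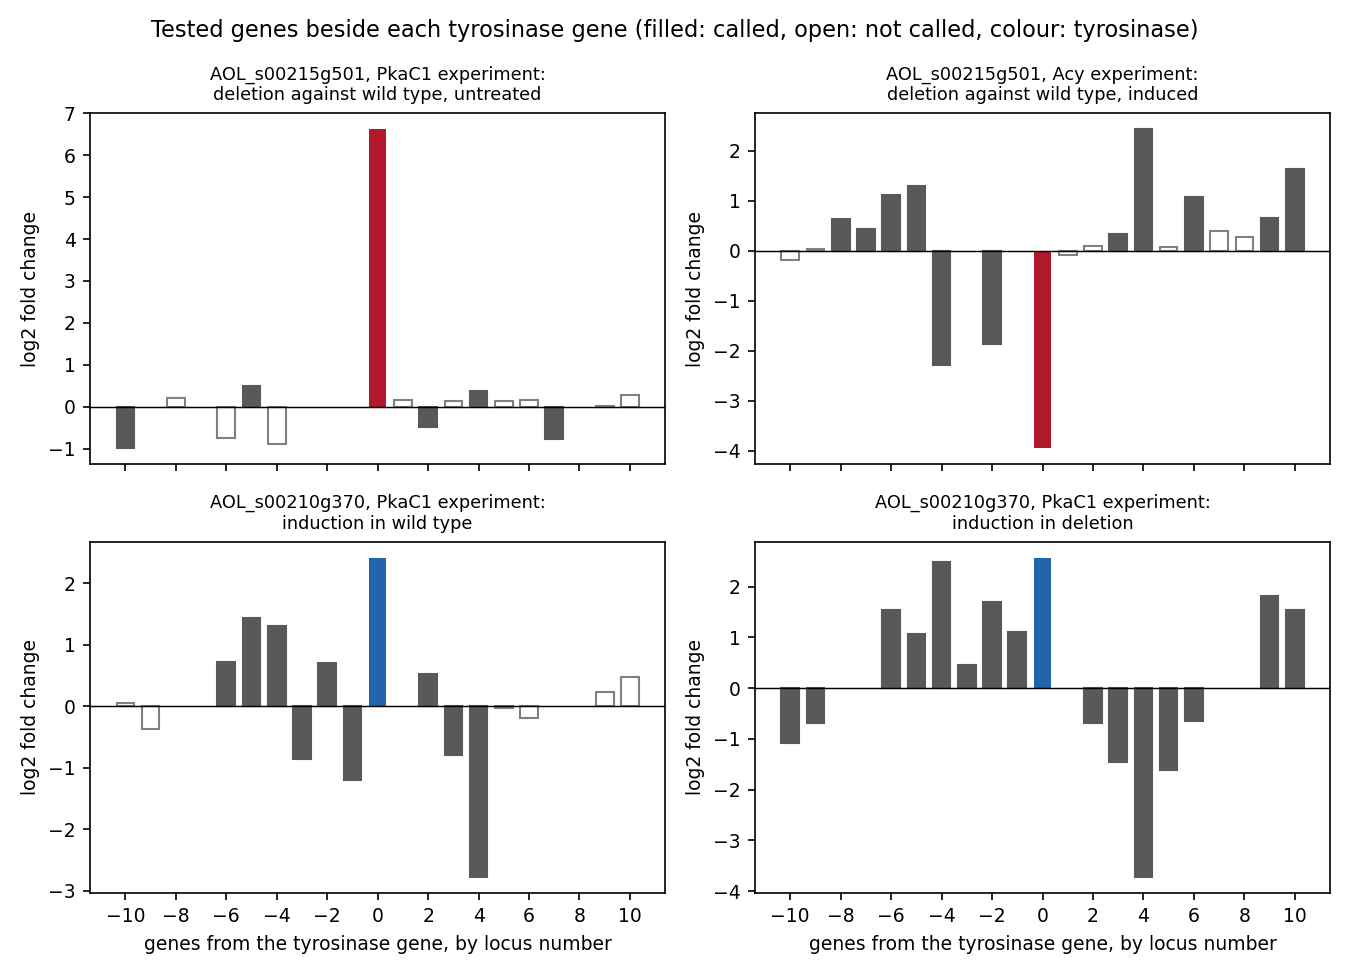
Log2 fold change (vertical axis) of the tested genes within 10 locus numbers of AOL_s00215g501 (top) and AOL_s00210g370 (bottom), by distance in genes (horizontal axis), with the tyrosinase gene in colour and called genes filled. Beside AOL_s00215g501 at 6.63 the neighbours lie between -0.99 and 0.49, and the 6 genes before AOL_s00210g370 are all above 0 in the induction of the deletion.

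Among 8750 other genes tested in both experiments those most like each tyrosinase were ranked by the lower of the correlations of log2(TPM + 1) over the 12 libraries of each experiment. AOL_s00006g185, which has no annotated name, was most like AOL_s00215g501 (r = 0.99 in the PkaC1 and 0.97 in the Acy experiment). Its untreated libraries labelled PkaC1 deletion held 15.35, 12.52 and 16.78 TPM, and no wild type library of that experiment exceeded 0.16 TPM. Among Acy libraries it held 31.95 ± 10.9 TPM in induced wild type and 0.08 ± 0.0721 TPM in the induced deletion. The next in order were AOL_s00210g93, matched to an alcohol acetyltransferase (r = 0.93 in both), AOL_s00079g308, which has no annotated name (0.95 and 0.92), AOL_s00170g60, matched to the FAD-dependent monooxygenase OpS4 (0.95 and 0.91), and AOL_s00097g288, matched to a lipoxygenase (0.93 and 0.88). AOL_s00170g60 was listed at 0 in 9 of the 12 PkaC1 libraries and held 24.95, 14.83 and 10.94 TPM in the untreated deletion. AOL_s00170g60 and AOL_s00006g185 passed the PkaC1 filter through libraries labelled deletion alone, so their r there rests mainly on the untreated deletion group. All these genes were ranked on the same libraries, so a shared group pattern follows from the choice.

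The genes most like AOL_s00210g370 were less close. AOL_s00140g110, with a 2-oxoglutarate and iron dependent oxygenase domain, correlated at 0.87 and 0.72, AOL_s00109g124 at 0.76 and 0.71, AOL_s00097g534 at 0.70 in both, the glycerophosphocholine permease match AOL_s00076g624 at 0.66 and 0.70, and AOL_s00188g196 at 0.89 and 0.65. AOL_s00140g110 was at 23.1 ± 1.33 and 42.6 ± 2.56 TPM in untreated and induced wild type of the PkaC1 experiment and at 31.2 ± 5.54 and 39.5 ± 2.06 TPM in the deletion. Libraries of a group share its strain and treatment, and the 12 points behind each r are therefore not independent.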

How the data were processed

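The authors deposited 1 TPM table per experiment, with a column for each of the 24 libraries in all. The submitters' processing notes list HISAT2 and StringTie, with no version, and the genome build is not given in the sources used here. Lengths, multiples of 3 in 99.98% of genes, are called coding lengths. Separate deposited tables hold the authors' own comparisons as a linear fold ratio, a log2 fold change and a p-value, per the file headers, of which the log2 values alone are printed, and the tool behind them is not stated. The 8 columns of authors' group means and the deposited correlations between libraries were not used.

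Groups came from the sample titles. Annotated genes that reached 1 TPM in 3 or more of 12 libraries were fitted per experiment as log2(TPM + 1) over all 4 groups with limma 3.58.1 (limma-trend, empirical Bayes) in R 4.3.3. A gene was called at a Benjamini-Hochberg adjusted p under 0.05 over all genes tested. The fit was tested on simulated data. Lists were matched on words in the Swiss-Prot and Pfam text, or on locus number for neighbours, without either tyrosinase gene, and are described by counts and medians.

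Named genes are both tyrosinase genes, candidates for the deleted genes, the other tyrosinase genes, per list up to 4 called genes with the largest log2 fold change, and the 5 genes most like each tyrosinase gene. Genes, lists and rules were chosen with earlier results of these data known. All 11479 names matched a RefSeq locus tag. Shared replicate numbers paired libraries only in untreated and induced Acy deletion samples, where all 3 deviations correlated above 0.1 (r = 0.14 to 0.44).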

Additional observations from a re-analysis of the deposited data

Results flagged for a closer look

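AOL_s00215g501 differed between untreated and induced wild type in opposite directions in both experiments, with every induced library below every untreated one in the PkaC1 experiment (log2 fold change -0.61) and above in the Acy experiment (2.50). Among all genes tested 47.6% were separated downward in the first comparison and 13.2% upward in the second. The PkaC1 levels were near 0, at 0.49 to 0.67 TPM untreated and at most 0.09 TPM induced. The difference between the experiments was not tested, since the tables were deposited separately.

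Some other tyrosinase genes answered induction differently in wild type and in the libraries labelled deletion, by limma's test of the difference between responses (adjusted p under 0.05). In the PkaC1 experiment 71.9% of all genes tested had such a difference. There the deletion response minus the wild type response was -3.67 for AOL_s00140g53, -1.43 for AOL_s00054g968, -1.21 for AOL_s00170g41, 0.56 for AOL_s00173g332, 0.74 for AOL_s00083g38 and 1.49 for AOL_s00169g262. Libraries scaled to the same median gave 5 positive and 3 negative calls in place of 3 and 3. With each wild type group averaged into 1 library fewer genes were called, so not all of the named genes kept their call. In the Acy experiment, where 19.3% of all genes had one, the difference was 1.56 for AOL_s00054g968 and 1.35 for AOL_s00170g41, and scaling gave 2 positive calls and 1 negative.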

How the results depend on the processing

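No value of either tyrosinase gene changed sign under the alternatives run. With a pseudocount of 0.1 the log2 fold changes of AOL_s00215g501 in the PkaC1 experiment were 7.81 and 4.77 for the deletion (untreated and induced), -2.30 and -5.35 for induction (wild type and deletion) and -3.04 for the difference of responses. In the Acy experiment they were -3.90 and -6.23 for the deletion and 0.65 for induction of the deletion. AOL_s00210g370 was at 2.54 for induction of the PkaC1 wild type. With libraries scaled to the same median AOL_s00215g501 was at 6.31, 2.65, -4.22 (induction of the deletion) and -3.66 (difference) in the PkaC1 experiment. AOL_s00210g370 was then at 0.49, 1.32, 2.63, 3.46 and 0.83 in the PkaC1 experiment (deletion untreated and induced, induction of wild type and deletion, difference) and at -0.65 (induced deletion comparison) and -0.85 (difference) in the Acy experiment. The cause of these moves was not tested, but a smaller pseudocount widens changes of low genes by construction.

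Scaling moved the all-gene calls of the PkaC1 experiment from 3652 higher and 2155 lower to 2666 and 2970 (untreated deletion comparison), from 1697 and 4671 to 2853 and 2880 (induced), from 2526 and 3732 to 3368 and 3098 (induction of wild type) and from 1740 and 5587 to 3726 and 3087 (induction of deletion). In the Acy experiment 2554 and 1497 became 2100 and 2220, 4378 and 1317 became 2036 and 2877, 885 and 1866 became 1465 and 893, and 352 and 128 became 250 and 192. Medians over all genes moved from between -0.72 and 0.39 to between -0.09 and 0.10.

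With each PkaC1 wild type group as 1 library the all-gene counts were 3001 (untreated), 3918 (induced), 3343 (induction of wild type) and 3931 (difference), and 4 other tyrosinase genes were called in the induced comparison. With only the groups compared, induction of the Acy deletion gave 211 genes and no tyrosinase gene. Leaving out 1 library gave 152 (without induced deletion replicate 2) to 868 genes (without replicate 3) there and 0 to 1 tyrosinase genes, 1690 to 3129 genes for induction of the Acy wild type (lowest without induced wild type replicate 2, and 2751 with all libraries) and 851 to 2447 for the Acy difference (1852 with all). The replicate block kept every count of tyrosinase genes within 1.5 times, with 349 genes in place of 480 for induction of the Acy deletion, the one pairing the data showed. Depth limits values near 0, since TPM keep no counts.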

Other observations

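AOL_s00215g494, a neighbour of AOL_s00215g501 matched to the cell division control protein CDC73, was listed at 0 in all 12 libraries of the PkaC1 experiment. In the Acy experiment its group means lay between 39.7 and 60.6 TPM. It was chosen after its values were seen.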
